A study of Mus musculus with 21 samples.

Results

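The genes described here are 36 genes of glycolysis and of the response to low oxygen, named in a list and found by gene name in a count table of 23713 genes. All 36 are in the table, and all 36 passed the filter on low counts in every model. RNA was sequenced from keratinocytes, the epithelial cells of the epidermis, isolated from mouse tail skin. The 3 mouse models of basal cell carcinoma (BCC, a skin tumour driven by Hedgehog signalling) are named SmoM2, Gnas-eKO and PKI, and each has tumour-bearing mice (BCC, 4 libraries) and controls without tumour (Con, 3 libraries), 21 libraries in all. SmoM2 mice (batch A) were sampled at 29 days after induction of tumours, Gnas-eKO mice (batch B) at 42 and PKI mice (batch C) at 57. Both groups of a model share its batch, and between models the day, the batch and the model cannot be told apart.

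Smoothened is the membrane protein that turns the Hedgehog pathway on, and SmoM2 is a mutant of it that is always active. The G protein subunit made by Gnas stimulates cAMP production, cAMP in turn switches on protein kinase A, and the inhibitor of this kinase is called PKI. The labels name no allele, promoter, Cre line, strain, sex or age, and do not say whether the controls carry any allele of the model, so what the groups share beyond the tissue is not known here. Animal names in the headers start differently for SmoM2 tumours and SmoM2 controls. Nothing says what this stands for, and whatever it marks cannot be told apart from the tumour in SmoM2. Each library has a name of its own in the headers, but no label says that each came from a different mouse, so the p-values measure only the spread between these libraries.

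Glycolysis turns glucose into pyruvate in the cytosol. Glucose enters through transporters such as Slc2a1 and is trapped by hexokinases, and phosphofructokinase sets the pace of the upper steps. The lower steps, from Gapdh to Pkm, yield ATP, and lactate dehydrogenase (Ldha) and the monocarboxylate transporters carry off the end product. When oxygen falls, the prolyl hydroxylases encoded by Egln1 and Egln3 no longer mark the transcription factor subunit Hif1a for destruction, and Hif1a raises many genes of glycolysis, of blood vessel growth and of mitochondrial turnover. Growth signals also drive glycolysis in proliferating epidermis, in tumours and in wounds.

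The promoters of 5 members are shown because these genes carry the differences described below: Slc16a3 and Hk2 had the highest fold changes of the members in SmoM2, Pgk1 was among the 4 highest in PKI, with Slc16a3, Egln3 and Slc2a1, and P4ha1 and Egln3 changed in 1 model each. Sequences are from RefSeq (GRCm38.p6), read on the gene's strand from 5′ to 3′. Each holds the 250 bases before the RefSeq start, so the last base is at position -1. Capitals mark ACGTG or GCGTG, the core to which Hif1a dimers bind, and its reverse complements CACGT and CACGC. The windows of Hk2, Pgk1 and P4ha1 adjoin the annotated gene, that of Egln3 lies upstream after a short gap, and that of Slc16a3 lies within the GENCODE span of the gene, where its last bases are also annotated as untranslated exon of another transcript.
Slc16a3, chr11:120948817-120949066, plus strand: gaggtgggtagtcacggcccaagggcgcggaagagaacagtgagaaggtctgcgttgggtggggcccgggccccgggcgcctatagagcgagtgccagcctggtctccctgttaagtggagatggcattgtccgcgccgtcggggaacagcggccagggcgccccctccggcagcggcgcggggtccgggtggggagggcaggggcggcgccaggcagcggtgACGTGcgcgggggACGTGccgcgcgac
Hk2, chr6:82774455-82774704, minus strand: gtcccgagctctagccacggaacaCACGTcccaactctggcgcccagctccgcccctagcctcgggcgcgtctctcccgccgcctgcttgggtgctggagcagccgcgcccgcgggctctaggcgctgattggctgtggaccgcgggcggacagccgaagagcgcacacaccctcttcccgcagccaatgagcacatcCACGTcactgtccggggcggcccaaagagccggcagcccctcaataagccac
Pgk1, chrX:106186850-106187099, plus strand: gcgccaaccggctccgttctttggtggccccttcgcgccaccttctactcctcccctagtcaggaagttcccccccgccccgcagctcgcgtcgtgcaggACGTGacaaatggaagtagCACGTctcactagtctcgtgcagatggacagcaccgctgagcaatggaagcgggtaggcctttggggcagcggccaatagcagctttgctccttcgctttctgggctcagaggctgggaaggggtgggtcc
P4ha1, chr10:59323046-59323295, plus strand: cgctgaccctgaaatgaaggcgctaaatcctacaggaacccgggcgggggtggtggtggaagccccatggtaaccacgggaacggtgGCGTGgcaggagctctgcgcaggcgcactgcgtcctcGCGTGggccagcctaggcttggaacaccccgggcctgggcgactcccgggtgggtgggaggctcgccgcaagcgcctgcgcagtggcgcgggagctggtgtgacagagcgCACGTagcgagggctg
Egln3, chr12:54203875-54204124, minus strand: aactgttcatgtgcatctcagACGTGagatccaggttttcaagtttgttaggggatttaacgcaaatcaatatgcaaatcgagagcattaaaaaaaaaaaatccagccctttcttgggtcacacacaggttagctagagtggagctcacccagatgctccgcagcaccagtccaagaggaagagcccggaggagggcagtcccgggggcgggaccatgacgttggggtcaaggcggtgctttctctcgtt
Slc16a3 holds 2 copies of ACGTG on its own strand, at -27 and -14. Hk2 holds 2 copies of CACGT, at -226 and -52, and Pgk1 holds ACGTG at -150 and CACGT at -131. In P4ha1 a GCGTG lies at -163, another at -126, and a CACGT at -16, and in Egln3 a single ACGTG lies at -229. RefSeq promoters were matched by symbol for 34 of the 36 members, in 50 windows, since some genes have several starts. On either strand, ACGTG was found in 50% of these windows and in 16.6% of all 32851 windows of the same length, and GCGTG in 54% and 28.2%. CACGTG, an E-box that overlaps ACGTG on both strands, was found in 12% of member windows and 6.02% of all, and GACCACCCA, the consensus bound by the Gli factors of the Hedgehog pathway, in 0 and 0.225%. The list was drawn up in part from genes of the response to low oxygen, so an excess of the Hif1a core may follow from how it was made. Windows of the same gene can overlap and count a match again, and all windows were not matched for base composition. The windows of Car12, Gpi1 and Tpi1 held neither core. A match describes the letters of the window and does not show that a factor binds there.

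Levels are given as CPM (counts scaled to the size of the library), set on 1 scale over all 21 libraries by the TMM method. Library totals ranged from 16645858 to 22251132 counts, at which 3 counts are at most 0.189 CPM, and floors of this kind cover counting error only. A gene was called changed at an edgeR adjusted p under 0.05, with adjustment over all genes tested in the comparison. The 10 keratinocyte markers summed to 31553 to 76859 CPM in every library, while 8 endothelial markers summed to at most 8.59 CPM, 7 skeletal muscle markers to at most 4.54 and 4 adipocyte markers to at most 1.83. As a check of the labels, Smo had 93.7 to 111 CPM in SmoM2 Con and 283 to 312 in SmoM2 BCC, and Gnas had 172 to 178 CPM in Gnas-eKO Con and 51.1 to 115 in Gnas-eKO BCC. Smo rose in PKI too, with 98.1 to 113 CPM in Con and 138 to 161 in BCC (0.53, edgeR adjusted p 0.00187), so a rise of Smo by itself does not mark SmoM2. In Gnas-eKO Smo had 106 to 113 CPM in Con and 150 to 234 in BCC, apart without passing (0.85, edgeR adjusted p 0.0503). The rise of Smo in SmoM2 (1.55, edgeR adjusted p 1.13e-06) was larger than in PKI (difference -1.02, edgeR adjusted p 4.51e-05). The lower Gnas did not pass (-1.11, edgeR adjusted p 0.0647), although all 4 Gnas-eKO BCC libraries lay below Con. Pkia, a natural PKI gene, had 3.73 to 4.99 CPM in PKI Con and 2.11 to 3.74 in BCC, and the labels do not describe a PKI construct, so this gene checks nothing. On the first principal component of all genes, Gnas-eKO BCC replicate 2 lay at -12.9, while the other 3 Gnas-eKO BCC libraries lay at 35.7 to 38.4 and all Con libraries at -40.55 to -28.9, so the calls of members in Gnas-eKO are given with and without it.

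In SmoM2, 19 of the 36 members rose in BCC and 2 fell, against 29.7% of all 16370 genes called, 16.2% higher and 13.5% lower. In PKI 20 members rose and 2 fell, against 34.5% of 16397 genes, 18.7% higher and 15.8% lower. In Gnas-eKO none of the 36 passed (edgeR), where 1.63% of 16409 genes did (1.46% higher and 0.165% lower). At an unadjusted p under 0.05 there were 8 of 36 members in Gnas-eKO, and 19.6% of all genes. DESeq2 called 5 members there, with Hk2, Vegfa and Car12 higher and Slc2a1 and Hif1a lower, and 9.37% of all genes (6.8% higher and 2.58% lower). Members had a median log2 fold change of 0.27 in SmoM2, against 0.00 over all genes, of -0.01 against 0.02 in Gnas-eKO, and of 0.57 against -0.00 in PKI. At an unadjusted p under 0.05 there were 23 members each in SmoM2 and PKI, against 40.4% and 44.7% of all genes. In SmoM2 the 4 BCC libraries lay above the 3 Con libraries for 21 members and below for 3, and in PKI for 20 and 2. The same held for 2 and 4 members in Gnas-eKO, whose BCC libraries spread widely. Over all genes, BCC lay above Con without overlap for 19.6% in SmoM2, 9.99% in the Gnas-eKO model and 22.4% in PKI, and below it for 19.2%, 9.67% and 20.8%. RNA of bulk samples does not tell fewer cells of a type from less RNA per cell, which holds for every change given here.

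**Figure D1:**
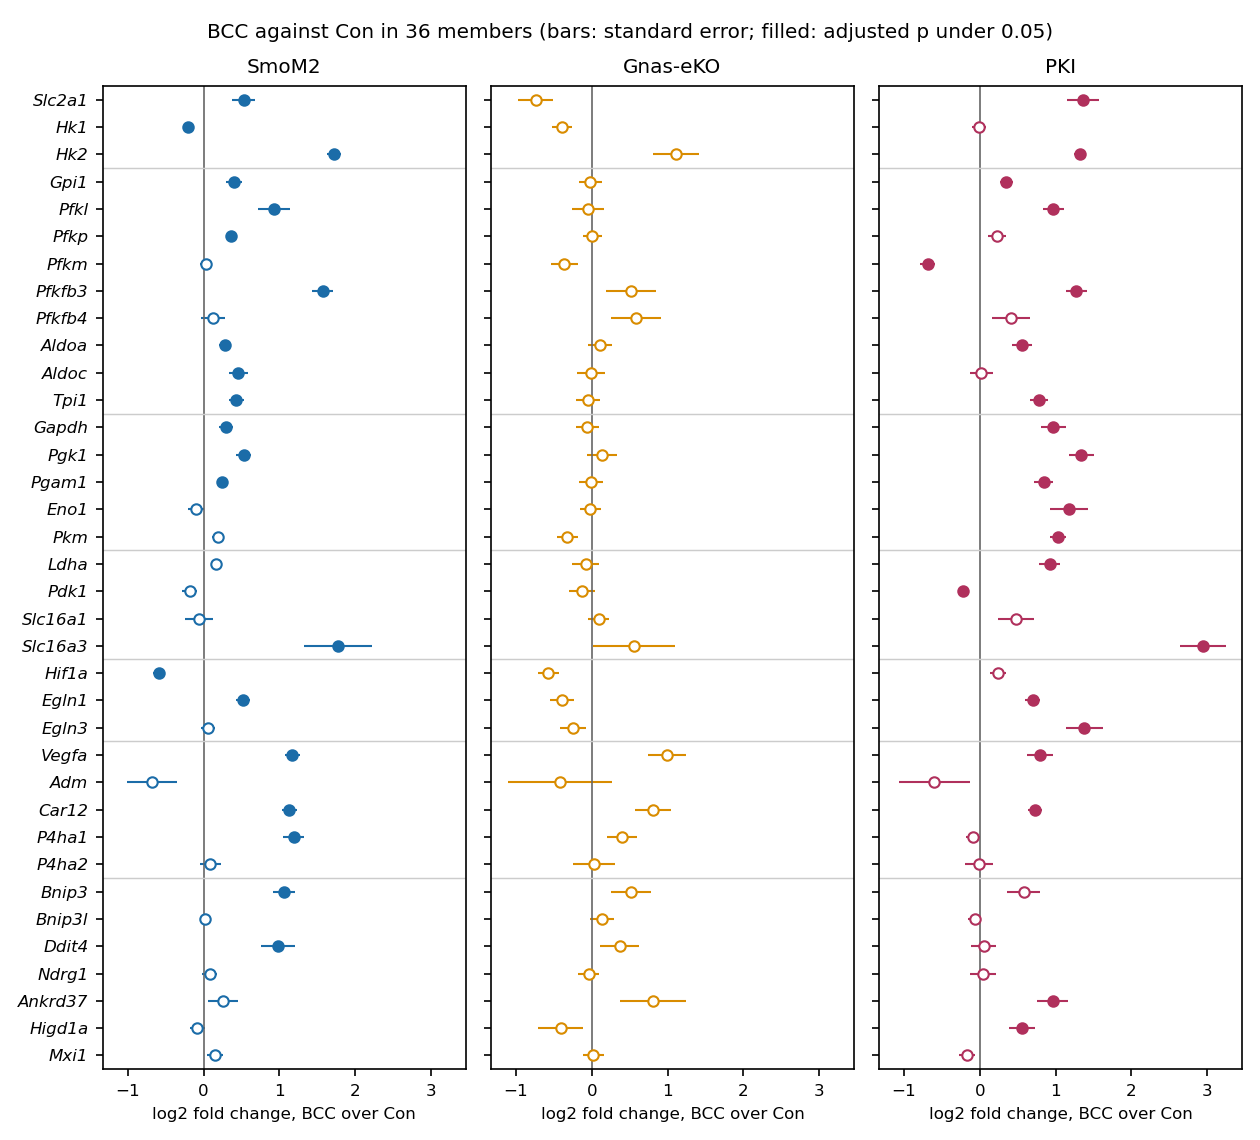
log2 fold change of BCC over Con for each of the 36 members (rows, grouped by role) in the 3 models (panels), with its standard error as a bar and filled points at an adjusted p under 0.05. Filled points number 21 in the SmoM2 panel, 22 in the PKI panel and 0 in the Gnas-eKO panel, and Slc16a3 is the farthest to the right in SmoM2 (1.77) and PKI (2.94).

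Of the genes of glucose entry, Hk2 and Slc2a1 rose in both SmoM2 and PKI, and Hk1 fell in SmoM2. Hk2, the inducible hexokinase of many tumours, had 41, 44.7 and 53.8 CPM in SmoM2 Con and 150, 152, 154 and 150 in BCC (log2 fold change 1.72, SE 0.09, edgeR adjusted p 1.9e-06). The 4 SmoM2 tumours were nearly identical in Hk2 and lay about 3.29-fold above their controls. In PKI it had 50.7, 49 and 43.3 CPM in Con and 123, 120, 112 and 115 in BCC (1.32, SE 0.08, edgeR adjusted p 3.39e-05). In Gnas-eKO the Con libraries had 58.6, 62.2 and 52.2 CPM and BCC 177, 70.4, 96.5 and 150 CPM. All 4 of these tumours were above Con, with the lowest in BCC replicate 2, and the log2 fold change of 1.11 (SE 0.30) did not pass (edgeR adjusted p 0.0986). Without BCC replicate 2 it was 1.31 (SE 0.22, edgeR adjusted p 0.00926).

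Slc2a1, the main glucose transporter of keratinocytes (GLUT1), rose in PKI and, less firmly, in SmoM2. Its PKI libraries had 130, 127 and 100 CPM in Con and 386, 353, 227 and 246 CPM in BCC, with no overlap (1.36, SE 0.21, edgeR adjusted p 0.00223). In SmoM2 the values were 219, 188 and 197 CPM in Con and 299, 357, 220 and 276 in BCC (0.53, SE 0.15, edgeR adjusted p 0.0264), and the lowest tumour lay just above the highest control. In Gnas-eKO all 4 tumours lay below the controls, with 394, 226 and 246 CPM in Con and 127, 207, 171 and 181 in BCC, a log2 fold change of -0.74 (SE 0.23) that did not pass (edgeR adjusted p 0.129). The effect in PKI exceeded that in Gnas-eKO by 2.11 on the log2 scale (SE 0.33, edgeR adjusted p 0.00324), a call kept in every alternative fit. It exceeded that in SmoM2 by 0.83 (SE 0.27, edgeR adjusted p 0.0416). The BCC means were close, at 288 CPM in SmoM2 and 303 in PKI, while the Con means were 201 and 119.

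Hk1, the constitutive hexokinase, had 137, 150 and 145 CPM in SmoM2 Con and 121, 124, 125 and 126 in BCC, and fell by 0.20 on the log2 scale (SE 0.06, edgeR adjusted p 0.0282). It had 131, 144 and 140 CPM in Gnas-eKO Con and 96.3, 124, 88.5 and 111 in BCC (-0.39, edgeR adjusted p 0.165), and 133 to 151 CPM in PKI Con against 131 to 156 in BCC (-0.01, edgeR adjusted p 0.95). All tumours lay below their controls in SmoM2 and Gnas-eKO, and the groups overlapped in PKI. Per kilobase of the longest coding transcript, Hk2 held 18.8% to 22.4% of the summed level of Hk1 and Hk2 in SmoM2 Con and 48% to 48.9% in SmoM2 BCC. This share was 18.3% to 22.8% in PKI Con and 37.9% to 39.9% in BCC, and 22.4% to 25.8% and 30.6% to 58.8% in Gnas-eKO. In all 3 models every BCC library had a higher share of Hk2 than every Con library. In SmoM2, the call of Slc2a1 was lost in 4 of 7 fits that each left out 1 library (without Con replicate 2 or 3, or BCC replicate 1 or 4), with an edgeR adjusted p of up to 0.0956, and that of Hk1 in all but the one without Con replicate 1, up to 0.107. The difference of Slc2a1 between PKI and SmoM2 was kept in only 3 of 14 such fits, those without SmoM2 BCC replicate 2 or PKI BCC replicate 3 or 4, with an edgeR adjusted p of 0.017 to 0.101.

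**Figure D2:**
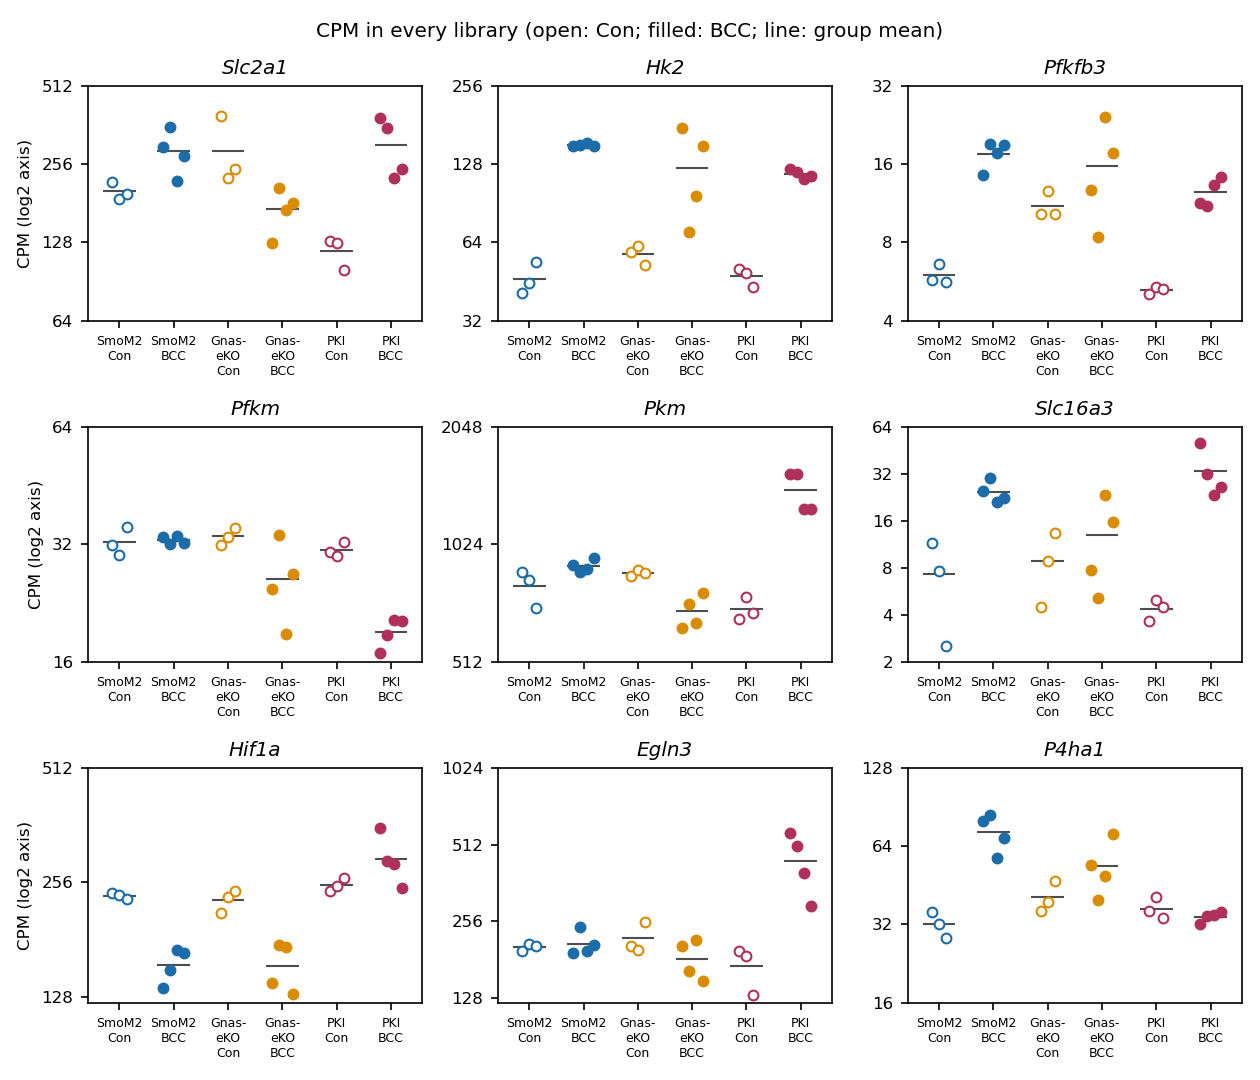
CPM (log2 axis) of 9 members in every library, by group, with open points for Con, filled points for BCC and a line at the group mean. Hk2 lies at 41 to 53.8 CPM in SmoM2 Con, 150 to 154 in SmoM2 BCC and 112 to 123 in PKI BCC, Pkm and Egln3 are highest in the PKI BCC group, P4ha1 is high in SmoM2 BCC, and the Gnas-eKO BCC points are spread out.

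Of the 9 genes of the upper part of glycolysis, 7 rose in SmoM2, and 5 rose and 1 fell in PKI. Pfkfb3 makes the small molecule that switches phosphofructokinase on. It had 5.74, 6.6 and 5.63 CPM in SmoM2 Con and 14.5, 19.1, 17.6 and 19 in BCC (1.57, SE 0.14, edgeR adjusted p 3.92e-05), and 5.07, 5.37 and 5.29 CPM in PKI Con and 11.3, 11.1, 13.3 and 14.3 in BCC (1.27, SE 0.14, edgeR adjusted p 0.000399). The fitted rise was 2.96-fold in SmoM2 and 2.41-fold in PKI, with no overlap between tumours and controls in either. Gnas-eKO Con libraries had 10.3, 12.6 and 10.3 CPM and BCC libraries 12.7, 8.42, 24.3 and 17.7, and these groups overlapped (0.52, edgeR adjusted p 0.426). Its relative Pfkfb4 did not pass in any model, with group means of 7.48 to 11.2 CPM.

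Of the 3 phosphofructokinase genes, Pfkl rose in SmoM2 and PKI, Pfkp rose in SmoM2, and Pfkm fell in PKI. Pfkl, the liver type, rose from 39.2 ± 8.55 CPM (SD, n = 3) to 73.8 ± 15.9 (SD, n = 4) in SmoM2 and from 49.2 ± 2.06 to 95.4 ± 17.9 in PKI, with log2 fold changes of 0.93 (SE 0.21) and 0.97 (SE 0.14). Pfkp, the platelet type and the most abundant of the 3 per kilobase, rose in SmoM2 (0.36, SE 0.07) and had 0.23 in PKI, which did not pass. Pfkm, the muscle type, had 30.5, 29.9 and 32.5 CPM in PKI Con and 16.8, 18.7, 20.5 and 20.4 in BCC, and fell by 0.69 (SE 0.10, edgeR adjusted p 0.00107). In SmoM2 it had 31.9, 30.1 and 35.4 CPM in Con and 33.5, 32.1, 33.7 and 32.2 in BCC (0.03, edgeR adjusted p 0.809), and in Gnas-eKO 31.9, 33.5 and 35.3 against 24.6, 33.9, 18.8 and 26.9 (-0.36, edgeR adjusted p 0.333). The groups were thus apart in PKI and overlapped in the other models, and the effect in PKI was below that in SmoM2 by a log2 difference of -0.72 (SE 0.12, edgeR adjusted p 0.000826). As a share of the 3 genes per kilobase, Pfkm held 18.3% to 19.8% in PKI Con and 6.91% to 11.5% in BCC, while Pfkl held 21.8% to 24.1% and 33.8% to 37.4%. In SmoM2 the share of Pfkl was 16.1% to 23.3% in Con and 24.4% to 31.9% in BCC.

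Of the other enzymes of upper glycolysis, Gpi1, Aldoa and Tpi1 rose in SmoM2 and PKI, and Aldoc in SmoM2. Gpi1, which converts glucose 6-phosphate to fructose 6-phosphate, had 225, 197 and 169 CPM in SmoM2 Con and 288, 268, 231 and 242 in BCC (0.40, SE 0.11, edgeR adjusted p 0.0197). In PKI it had 206, 187 and 194 CPM in Con and 277, 251, 233 and 228 in BCC (0.35, SE 0.09, edgeR adjusted p 0.0119), and in Gnas-eKO 199 to 218 CPM in Con and 164 to 235 in BCC. Aldoa, the main aldolase, had 414, 475 and 387 CPM in SmoM2 Con and 533, 494, 528 and 491 in BCC (0.28, SE 0.08, edgeR adjusted p 0.0264). Its PKI libraries had 429, 455 and 420 CPM in Con and 785, 662, 539 and 559 in BCC (0.56, SE 0.13, edgeR adjusted p 0.00927), and in Gnas-eKO 405 to 483 in Con and 394 to 539 in BCC. Both genes were thus above their controls in every tumour of SmoM2 and PKI and overlapped in Gnas-eKO. Tpi1, triose phosphate isomerase, rose by 0.43 in SmoM2 and 0.78 in PKI, and Aldoc, a minor aldolase here, by 0.46 in SmoM2 while it had 0.02 in PKI. With 1 library left out, the SmoM2 calls of Gpi1, Aldoa and Aldoc were lost in 4, 4 and 1 of 7 fits. For Gpi1 these were the fits without Con replicate 2 or 3 or BCC replicate 1 or 2 (edgeR adjusted p up to 0.0667), for Aldoa those without Con replicate 1 or 3 or BCC replicate 1 or 3 (up to 0.0756), and for Aldoc the one without Con replicate 1 (0.0702). In PKI the call of Gpi1 was lost without Con replicate 2 (edgeR adjusted p 0.0546).

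All 5 genes of lower glycolysis rose in PKI, 3 of them rose in SmoM2, and none passed in Gnas-eKO by edgeR within that model. Pkm, pyruvate kinase, the last step of glycolysis, was the most abundant member per kilobase in both Con and BCC of SmoM2 and PKI. It had 660, 751 and 684 CPM in PKI Con and 1556, 1555, 1264 and 1265 in BCC (1.03, SE 0.11, edgeR adjusted p 0.000272). In SmoM2 it had 868, 829 and 704 CPM in Con and 906, 870, 884 and 945 in BCC (0.19, SE 0.08, edgeR adjusted p 0.118), and in Gnas-eKO 850, 878 and 867 CPM in Con and 625, 722, 644 and 769 in BCC (-0.32, SE 0.14, edgeR adjusted p 0.253, and -0.33 with 0.0438 in a joint fit of all 21 libraries). The tumours thus lay above all controls in PKI, narrowly above in SmoM2, where the change did not pass, and below in Gnas-eKO, where it passed in the joint fit alone of the fits run. The effect in PKI exceeded that in SmoM2 by 0.84 (SE 0.13, edgeR adjusted p 0.000591) and that in Gnas-eKO by 1.35 (SE 0.18, edgeR adjusted p 0.00184), and both differences were kept in every alternative fit. These 2 comparisons share the PKI libraries.

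Pgk1, phosphoglycerate kinase, which makes ATP, had 48.6, 56 and 51.6 CPM in PKI Con and 166, 141, 104 and 111 in BCC (1.34, SE 0.16, edgeR adjusted p 0.000708). In SmoM2 it had 65.7, 62.5 and 47.6 CPM in Con and 83.3, 82.9, 84.2 and 84.3 in BCC (0.53, SE 0.10, edgeR adjusted p 0.00398), and in Gnas-eKO 62.9, 70.4 and 72.2 in Con and 63.9, 55.8, 105 and 75.6 in BCC. Pgam1, phosphoglycerate mutase, had 183, 189 and 171 CPM in SmoM2 Con and 209, 211, 216 and 212 in BCC (0.24, SE 0.06, edgeR adjusted p 0.0127). In PKI it had 166, 178 and 157 CPM in Con and 361, 304, 261 and 257 in BCC (0.84, SE 0.12, edgeR adjusted p 0.00126), and in Gnas-eKO 186 to 207 in Con and 160 to 241 in BCC. Tumours and controls of SmoM2 and PKI did not overlap in either gene, and those of Gnas-eKO did. Gapdh, which reduces NAD while oxidising glyceraldehyde phosphate, rose by 0.30 in SmoM2 (SE 0.09) and 0.97 in PKI (SE 0.16). Eno1, enolase, had 165 to 173 CPM in SmoM2 Con and 125 to 177 in BCC, and rose from 121 to 127 CPM in PKI Con to 201 to 411 in BCC (1.18, SE 0.25, edgeR adjusted p 0.0101).

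For all 5 genes of lower glycolysis, the effect in PKI was larger than in SmoM2, by 0.59 (Pgam1) to 1.27 (Eno1) on the log2 scale, and larger than in Gnas-eKO by 0.85 (Pgam1) to 1.35 (Pkm), with an edgeR adjusted p under 0.05 for each. With the counts of near-identical copies (genes of nearly the same sequence) added, the difference between PKI and SmoM2 was 0.84 for Eno1 (SE 0.20, edgeR adjusted p 0.00717), against 0.83 for Pkm and 0.53 for Pgam1. The call of Gapdh in SmoM2 was lost in 5 of 7 fits that left out 1 library, those without Con replicate 2 or 3 or BCC replicate 1, 3 or 4 (edgeR adjusted p up to 0.0802). Its difference between PKI and SmoM2 was lost in 4 of 14, those without SmoM2 Con replicate 1 or 2, SmoM2 BCC replicate 2 or PKI Con replicate 3 (up to 0.058). Against Gnas-eKO, the differences of Pgk1, Pgam1 and Eno1 were lost in 1, 6 and 6 of 14, at up to 0.0511, 0.0716 and 0.0625. All 3 were lost without Gnas-eKO Con replicate 2. Pgam1 and Eno1 were also lost without Gnas-eKO Con replicate 1, PKI Con replicate 1 or 3, or PKI BCC replicate 2, Pgam1 without Gnas-eKO Con replicate 3, and Eno1 without PKI Con replicate 2.

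Counts of lower glycolysis are uncertain, because reads can be divided among near-identical copies of these genes (at least 95% identity over at least 300 bases). The count table holds 65 such copies of Gapdh, 3 each of Pgk1, Eno1 and Ldha, 4 of Bnip3, and 1 each of Tpi1, Pgam1, Pkm and Bnip3l. The gene itself held 24.5% to 33.9% of the CPM of gene plus copies for Gapdh, 29.5% to 33.6% for Pgk1 and 26.3% to 39.5% for Eno1, and at least 74.3% for each of the other 6. With the copies added to the gene, all the calls of these 9 members within the models were the same, with edgeR log2 fold changes in PKI of 1.05 for Gapdh, 1.29 for Pgk1 and 1.10 for Eno1. In SmoM2 Eno1 turned from -0.10 to 0.25 (SE 0.10, edgeR adjusted p 0.0831), so its direction in SmoM2 depends on how reads were divided. The sum for Eno1 was 450 to 461 CPM in SmoM2 Con and 474 to 606 in BCC, and in PKI it was 361 to 467 in Con and 747 to 1071 in BCC. Besides these, 17 members overlap a gene on the opposite strand, and whether counting used the strand is not given in the sources used here.

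Of the lactate transporters, Slc16a3 (MCT4) rose in SmoM2 and PKI, and the broadly expressed Slc16a1 (MCT1) passed in no model. Slc16a3 had 3.65, 4.99 and 4.5 CPM in PKI Con and 50.8, 31.9, 23.6 and 26.5 in BCC, 7.66-fold higher (2.94, SE 0.30, edgeR adjusted p 0.000438), and in SmoM2 11.6, 7.63 and 2.54 CPM in Con and 24.7, 30, 21.1 and 22.4 in BCC, 3.4-fold higher (1.77, SE 0.45, edgeR adjusted p 0.0248). In Gnas-eKO it had 4.51, 8.83 and 13.3 CPM in Con and 7.76, 5.09, 23.6 and 15.7 in BCC, with overlap (0.56, SE 0.54, edgeR adjusted p 0.622). Tumours lay above controls in every library of the other models, while the SmoM2 controls themselves were spread widely. Slc16a1 had group means of 38.3 to 84.2 CPM, with 0.48 in PKI (SE 0.24, edgeR adjusted p 0.154). Per kilobase, Slc16a3 held 6.33% to 7.71% of the sum of both transporters in PKI Con and 25% to 30.8% in BCC, and 7.03% to 20.8% and 29.3% to 47.9% in SmoM2. The Slc16a3 effect in PKI was above that in SmoM2 by 1.17, which did not pass (edgeR adjusted p 0.148). It was above that in Gnas-eKO by 2.38 (SE 0.68, edgeR adjusted p 0.0464). In SmoM2 the call was lost without Con replicate 2 or BCC replicate 1, 2 or 4 (edgeR adjusted p up to 0.076), and the log2 fold change was 1.36 without Con replicate 3 and 2.29 without Con replicate 1. The difference from Gnas-eKO was lost in 10 of 14 such fits (edgeR adjusted p up to 0.112), and kept without Gnas-eKO Con replicate 1, Gnas-eKO BCC replicate 2 or 3, or PKI BCC replicate 3.

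Ldha, which reduces pyruvate to lactate, rose from 370 ± 23.7 CPM (SD, n = 3) to 695 ± 135 (SD, n = 4) in PKI (0.92, SE 0.14, edgeR adjusted p 0.00169). In SmoM2 it had 394 to 451 CPM in Con and 466 to 471 in BCC, above Con without passing (0.17, edgeR adjusted p 0.0769), and the PKI effect was larger by 0.75 (SE 0.16, edgeR adjusted p 0.0042). Pdk1, a mitochondrial kinase that inhibits pyruvate dehydrogenase and so the conversion of pyruvate to acetyl-CoA, did not rise with it. It had 138, 133 and 136 CPM in PKI Con and 114, 111, 114 and 124 in BCC, and fell by 0.22 (SE 0.07, edgeR adjusted p 0.0311), and it had 163, 146 and 125 CPM in SmoM2 Con and 131, 139, 111 and 125 in BCC. In Gnas-eKO the values were 142, 113 and 115 CPM in Con and 123, 126, 82.7 and 116 in BCC, so the groups were apart in PKI alone. The fall in PKI was lost in 6 of 7 fits that left out 1 library, all but the one without BCC replicate 4, with an edgeR adjusted p of up to 0.0943.

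**Figure D3:**
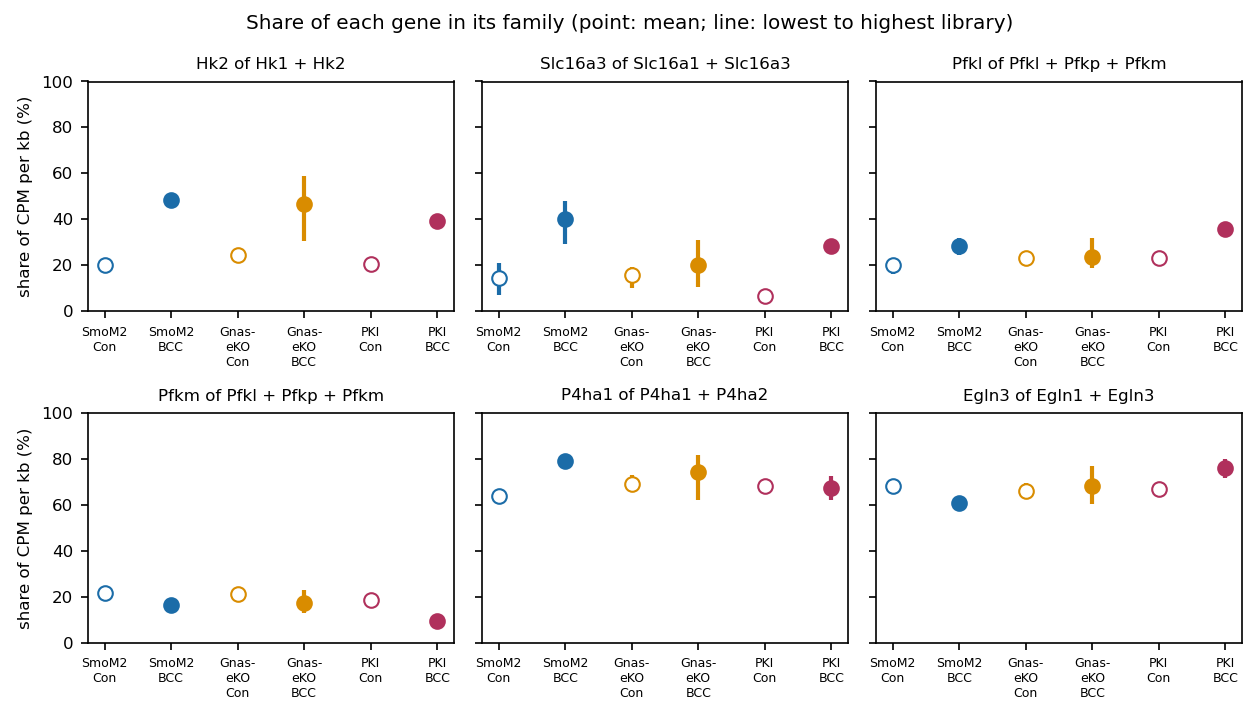
Share of 1 gene in the summed level of its family, in percent of CPM per kilobase of the longest coding transcript, by group, with the mean as a point and a line from the lowest to the highest library. The share of Hk2 is above Con in every BCC group, the shares of Slc16a3 and Pfkl rise in SmoM2 and PKI, and that of Pfkm is lowest in PKI BCC, at 6.91% to 11.5%.

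Of the oxygen sensing genes, Hif1a fell in SmoM2, Egln1 rose in SmoM2 and PKI, and Egln3 rose in PKI. Hif1a had 240, 237 and 231 CPM in SmoM2 Con and 135, 151, 170 and 167 in BCC, and fell by 0.59 on the log2 scale (SE 0.08, edgeR adjusted p 0.000626). In Gnas-eKO it had 213, 234 and 243 CPM in Con and 139, 175, 173 and 130 in BCC, a log2 fold change of -0.57 (SE 0.14) that did not pass (edgeR adjusted p 0.0848) but did without BCC replicate 2 (-0.63, SE 0.15, edgeR adjusted p 0.0304). Its PKI libraries had 243, 250 and 263 CPM in Con and 355, 292, 286 and 248 in BCC (0.24, SE 0.11, edgeR adjusted p 0.132). Tumours lay below all controls in SmoM2 and Gnas-eKO and overlapped them in PKI. The PKI effect exceeded that in SmoM2 by 0.83 (SE 0.15, edgeR adjusted p 0.00118) and that in Gnas-eKO by 0.81 (SE 0.19, edgeR adjusted p 0.0197, and 0.0553 without Gnas-eKO Con replicate 2). Hif1a protein is controlled mainly by its breakdown, which RNA does not show.

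Egln3 (PHD3), a hydroxylase that is itself a target of Hif1a, had 196, 187 and 132 CPM in PKI Con and 568, 506, 396 and 294 in BCC (1.38, SE 0.24, edgeR adjusted p 0.00449). In SmoM2 it had 195, 208 and 204 CPM in Con and 193, 243, 196 and 206 in BCC (0.06, edgeR adjusted p 0.628), and in Gnas-eKO 205, 198 and 255 in Con and 204, 163, 216 and 149 in BCC (-0.25, edgeR adjusted p 0.46). The groups were apart in PKI and overlapped in the other models. Its effect in PKI exceeded that in SmoM2 by 1.31 (SE 0.27, edgeR adjusted p 0.00406) and that in Gnas-eKO by 1.63 (SE 0.31, edgeR adjusted p 0.00732), both kept in every alternative fit. Egln1 (PHD2), the main hydroxylase acting on Hif1a, had 133, 125 and 124 CPM in SmoM2 Con and 190, 207, 157 and 171 in BCC (0.52, SE 0.09, edgeR adjusted p 0.00242), and 122, 115 and 104 CPM in PKI Con and 193, 197, 181 and 159 in BCC (0.70, SE 0.10, edgeR adjusted p 0.000875). In Gnas-eKO it had 140, 160 and 151 CPM in Con and 111, 144, 88.3 and 113 in BCC (-0.39, edgeR adjusted p 0.235). The PKI and Gnas-eKO effects on Egln1 differed by 1.09 (SE 0.20, edgeR adjusted p 0.00631), a call kept in every alternative fit. The Gnas-eKO effect was below that in SmoM2 by a log2 difference of -0.91 that did not pass (edgeR adjusted p 0.102). It passed with DESeq2 (-0.90, DESeq2 adjusted p 0.00465), in the joint edgeR fit (-0.91, adjusted p 0.0347) and without Gnas-eKO BCC replicate 2 (-1.04, SE 0.17, edgeR adjusted p 0.0158). The joint fit also called Egln1 lower in Gnas-eKO itself (-0.40, SE 0.13, edgeR adjusted p 0.0412).

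Of the 5 secreted and surface targets of hypoxia, Vegfa and Car12 rose in both SmoM2 and PKI, P4ha1 rose in SmoM2, and P4ha2 and Adm passed in no model. Vegfa, the growth factor for blood vessels, had 28.1 ± 0.648 CPM (SD, n = 3) in SmoM2 Con and 62.7 ± 7.07 (SD, n = 4) in BCC (1.17, SE 0.10, edgeR adjusted p 2.31e-05). It rose from 25.3 ± 4.94 to 43.3 ± 8.42 CPM in PKI (0.79, SE 0.17, edgeR adjusted p 0.00797). In Gnas-eKO it had 27.8 to 41.1 CPM in Con and 44.6 to 84.4 in BCC, apart without passing (0.99, edgeR adjusted p 0.0882), and without BCC replicate 2 it passed (1.13, SE 0.22, edgeR adjusted p 0.0162). Car12, a carbonic anhydrase of the cell surface that handles acid, rose by 1.13 in SmoM2 (SE 0.10) and 0.73 in PKI (SE 0.09). Its 0.81 in Gnas-eKO (edgeR adjusted p 0.117) became 0.99 without BCC replicate 2 (SE 0.15, edgeR adjusted p 0.00648). Car12 rose less in PKI than in SmoM2 by a log2 difference of -0.40 (SE 0.14, edgeR adjusted p 0.0489), which was lost in 10 of 14 fits that left out 1 library (up to 0.137) and kept without SmoM2 Con replicate 1, SmoM2 BCC replicate 1, PKI Con replicate 2 or PKI BCC replicate 2. This difference was also lost with the size factors of DESeq2.

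P4ha1 encodes the catalytic subunit of collagen prolyl 4-hydroxylase. It had 35.7, 32 and 28.5 CPM in SmoM2 Con and 80, 84.1, 57.9 and 68.9 in BCC (1.19, SE 0.14, edgeR adjusted p 0.000227). In PKI it had 35.9, 40.7 and 33.8 CPM in Con and 32.2, 34.5, 34.8 and 35.8 in BCC (-0.09, edgeR adjusted p 0.478), and in Gnas-eKO 36.2, 39.2 and 47.1 in Con and 54.3, 39.9, 49 and 71.1 in BCC (0.40, edgeR adjusted p 0.302). The tumours were apart from controls in SmoM2 alone, and the PKI effect was lower by a log2 difference of -1.28 (SE 0.17, edgeR adjusted p 0.000149), kept in every alternative fit. P4ha2, the second catalytic subunit, had group means of 9.45 to 10.8 CPM in all groups. Adm, a peptide that widens blood vessels, was lowly expressed, with group means of 0.705 to 1.14 CPM.

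Of the 7 intracellular targets, 2 rose in SmoM2 and another 2 in PKI, which is 28.6% in each model, against 29.7% and 34.5% of all genes called. Bnip3, a receptor for the breakdown of mitochondria, rose from 22.8 ± 2.49 CPM (SD, n = 3) to 47.2 ± 7.86 (SD, n = 4) in SmoM2 (1.06, SE 0.14, edgeR adjusted p 0.000398), and had 0.58 in PKI (SE 0.22, edgeR adjusted p 0.0731). Ddit4 (REDD1), an inhibitor of mTORC1, rose from 68 ± 21.8 to 133 ± 13.4 CPM in SmoM2 (0.98, SE 0.22, edgeR adjusted p 0.0131) and had 0.05 in PKI. The PKI effect on Ddit4 was below that in SmoM2 (-0.93, SE 0.29, edgeR adjusted p 0.0319), a difference lost in 6 of 14 fits that left out 1 library, those without SmoM2 Con replicate 2, SmoM2 BCC replicate 3 or 4, PKI Con replicate 1 or 3, or PKI BCC replicate 1 (up to 0.0756). For Bnip3 the difference of -0.48 did not pass, and neither did -0.47 with the counts of near-identical copies added (SE 0.27, edgeR adjusted p 0.23).

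Ankrd37, a small ankyrin protein, had 2.34 to 2.53 CPM in PKI Con and 4.05 to 5.37 in BCC (0.96, SE 0.20, edgeR adjusted p 0.00585), and 0.26 in SmoM2. Higd1a, a mitochondrial protein, had 58.6, 62.1 and 54.5 CPM in PKI Con and 99.5, 103, 70.6 and 66.6 in BCC (0.56, SE 0.17, edgeR adjusted p 0.0309), and 60.6 to 69.1 CPM in SmoM2 Con and 52.3 to 70.6 in BCC (-0.08). In Gnas-eKO it had 62.2 to 76.2 CPM in Con and 30.6 to 82.7 in BCC (-0.41, edgeR adjusted p 0.501). The call in PKI, where the groups were apart, was lost in 5 of 7 fits that left out 1 library, all but those without BCC replicate 3 or 4 (up to 0.105). Its difference between PKI and SmoM2 was 0.64 (SE 0.21, edgeR adjusted p 0.0381) and was kept in 3 of 14 fits, those without SmoM2 BCC replicate 2 or PKI BCC replicate 3 or 4 (up to 0.0889 in the others). Bnip3l, Ndrg1 and Mxi1 stayed between -0.17 and 0.15 in all 3 models and did not pass. Their group means were 128 to 143 CPM, 85.8 to 112 CPM and 97.2 to 131 CPM.

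**Figure D4:**
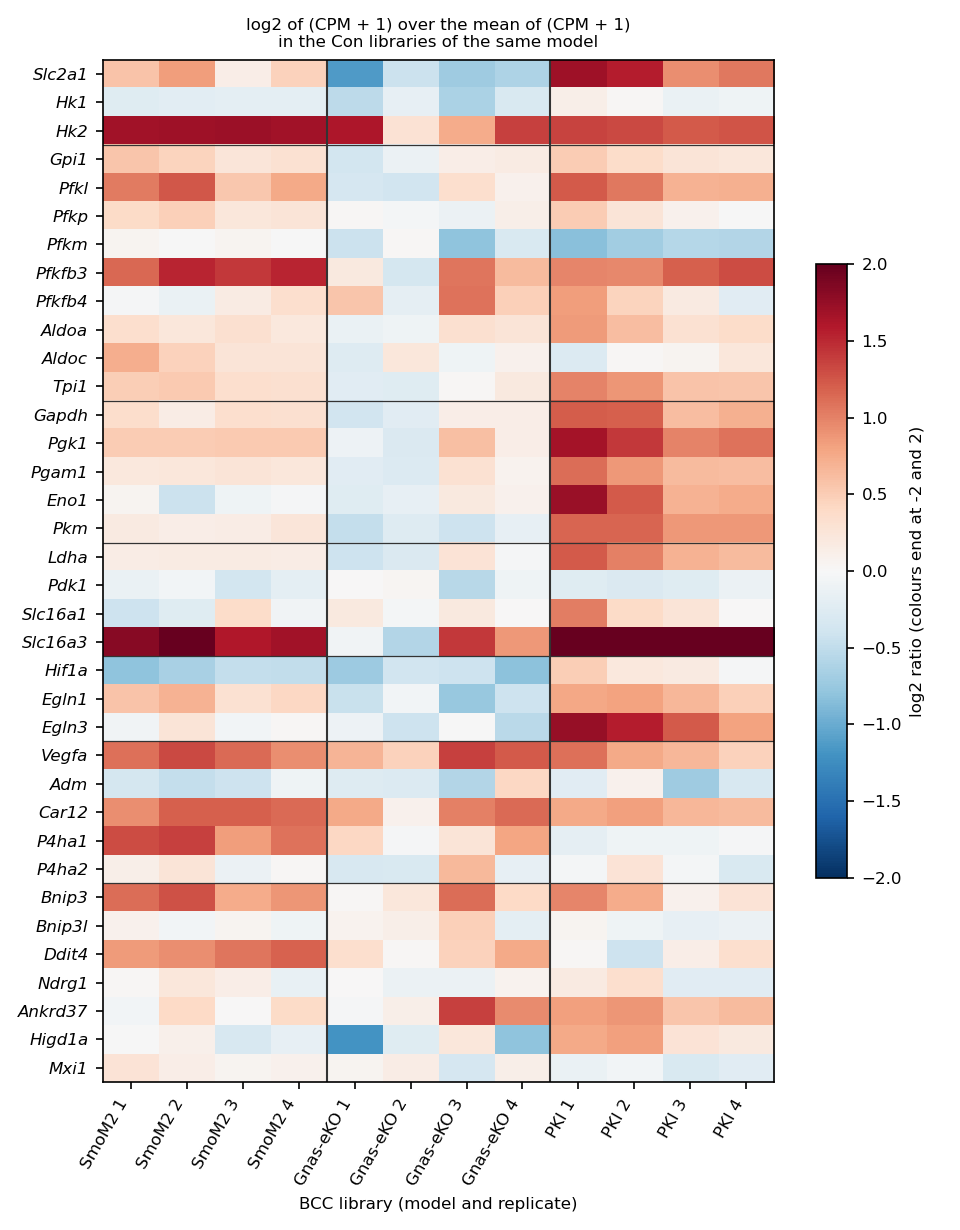
log2 ratio of CPM (plus 1) in each of the 12 BCC libraries (columns) to the mean of the Con libraries of its model, for the 36 members (rows, grouped by role), with red for higher and blue for lower. PKI replicates 1 and 2 are redder than 3 and 4 in most rows of glycolysis, and Gnas-eKO replicate 2 is paler than the other libraries of its model for Hk2, Car12 and Vegfa.

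Across models, 14 members rose in both SmoM2 and PKI (Slc2a1, Hk2, Gpi1, Pfkl, Pfkfb3, Aldoa, Tpi1, Gapdh, Pgk1, Pgam1, Slc16a3, Egln1, Vegfa and Car12). Called in SmoM2 and not in PKI were 5 that rose (Pfkp, Aldoc, P4ha1, Bnip3 and Ddit4) and 2 that fell (Hk1 and Hif1a). Called in PKI and not in SmoM2 were 6 that rose (Eno1, Pkm, Ldha, Egln3, Ankrd37 and Higd1a) and 2 that fell (Pfkm and Pdk1), and 7 members passed in no model. How many of all genes fall in each of these patterns was not counted. Taken singly, 16.2% of all genes rose in SmoM2 and 18.7% in PKI, and 13.5% and 15.8% fell. No member was called in opposite directions by edgeR fitted within each model without a block. DESeq2 called Slc2a1 higher in SmoM2 and PKI and lower in Gnas-eKO (-0.75, DESeq2 adjusted p 0.0328). The joint edgeR fit of all 21 libraries called Slc2a1, Pkm and Egln1 higher in PKI and lower in Gnas-eKO, where it called 8 members and 14.9% of all genes. The direct test of the difference between PKI and SmoM2 called 15 members, 10 of them with the higher effect in PKI and 5 with the lower, against 24.9% of 17261 genes (12.6% higher and 12.3% lower). Higher in PKI were Slc2a1, all 5 genes of lower glycolysis, Ldha, Hif1a, Egln3 and Higd1a, and lower were Hk2, Pfkm, Car12, P4ha1 and Ddit4. For Hk2, which rose in both models, the log2 difference was -0.40 (SE 0.12, edgeR adjusted p 0.0226), lost without SmoM2 Con replicate 1 or 2 or PKI Con replicate 1 or 2 (up to 0.0637). Without SmoM2 Con replicate 2 the test called 9 members in all, and 3430 of all genes in place of 4300. In a joint fit of all 21 libraries, Slc2a1, Hk2, Car12, Ddit4 and Higd1a lost this call, and without the filter on low counts Slc2a1, Car12 and Ddit4 did. Within SmoM2 the joint fit ended the calls of Slc2a1, Hk1, Aldoa, Aldoc, Gapdh and Pgam1, and within PKI those of Pdk1 and Higd1a. Without the filter, Hk1 and Slc16a3 lost their calls in SmoM2 and Pdk1 in PKI, and Slc16a3 also its difference between PKI and Gnas-eKO. Model, day and batch differ together in each contrast between models and cannot be told apart.

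**Figure D5:**
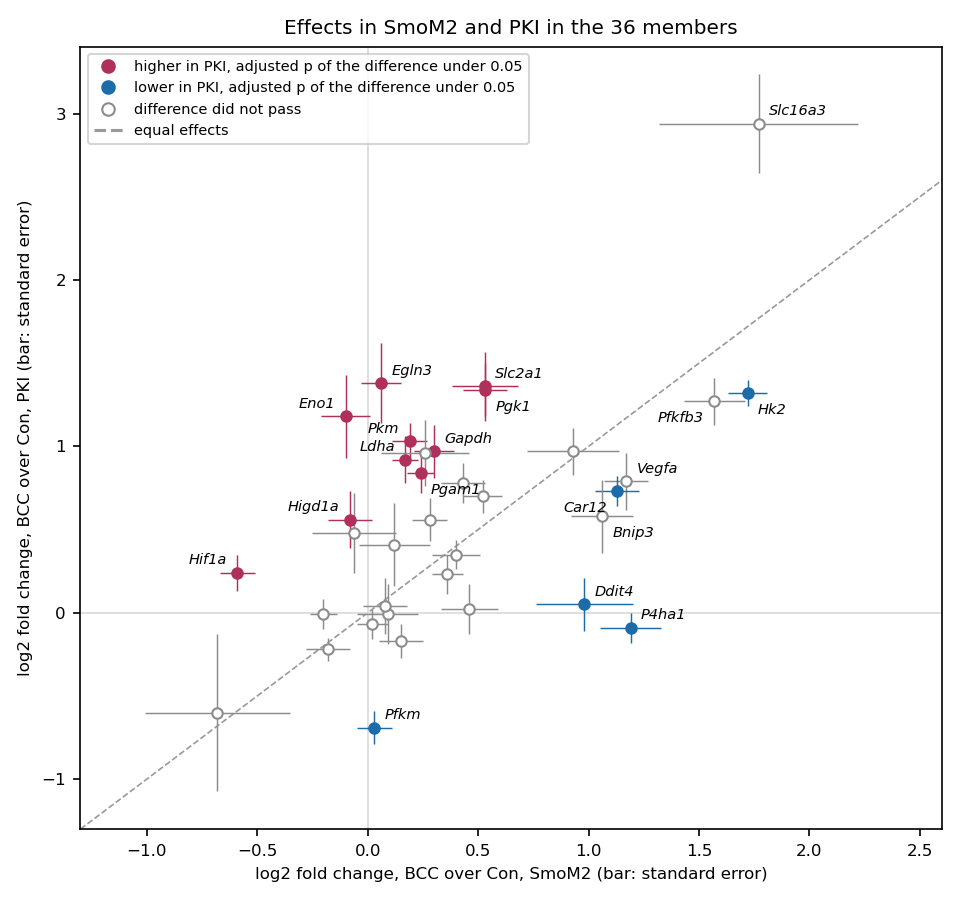
log2 fold change of BCC over Con in SmoM2 (horizontal) and PKI (vertical) for the 36 members, each with its standard errors, in red where the effect was higher in PKI and in blue where it was lower, by the test of the difference, and with a dashed line at equal effects. Above the line lie 10 red points, among them Egln3 and Eno1, and below it 5 blue ones, with P4ha1 and Ddit4 farthest.

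Between PKI and Gnas-eKO, 13 members had a higher effect in PKI and 0 a lower one (edgeR; 9.06% of 17254 genes called, 4.49% higher and 4.57% lower). They were Slc2a1, Pfkl, Tpi1, the 5 genes of lower glycolysis, Ldha, Slc16a3, Hif1a, Egln1 and Egln3, and among them Slc2a1, Gapdh, Pkm, Egln1 and Egln3 were kept in every alternative fit. With 1 library left out, the count fell to 5 without Gnas-eKO Con replicate 2, 8 without PKI Con replicate 1, 7 without PKI Con replicate 3 and 7 without PKI BCC replicate 2. Over all genes, the 1564 calls fell in the same fits to 673, 1019, 782 and 874. At an unadjusted p under 0.05 there were 17 members, and DESeq2 called 13 members and 13.9% of all genes. Without these and other libraries, the calls of Pfkl, Tpi1 and Ldha were lost in 8, 5 and 4 of 14 fits, at an edgeR adjusted p of up to 0.0808, 0.061 and 0.0648. All 3 were lost without Gnas-eKO Con replicate 2, PKI Con replicate 3 or PKI BCC replicate 2. Pfkl and Tpi1 were also lost without Gnas-eKO Con replicate 3 or PKI Con replicate 1, Pfkl and Ldha without PKI Con replicate 2, and Pfkl without Gnas-eKO BCC replicate 1 or PKI BCC replicate 1. Between Gnas-eKO and SmoM2, 0 of 36 members passed (edgeR; 0.175% of 17151 genes did), 9 had an unadjusted p under 0.05 against 8.74% of all genes, and DESeq2 called 3, all lower in Gnas-eKO (Slc2a1, Pkm and Egln1), and 1.24% of all genes (0.607% higher and 0.63% lower). Without Gnas-eKO BCC replicate 2, 4 members were called in Gnas-eKO itself (Hk2, Vegfa and Car12 higher, Hif1a lower), and 11.8% of all genes were (7.36% higher and 4.43% lower). The other 32 did not pass in that fit. Among them Egln1 had -0.52 (edgeR adjusted p 0.0512), Hk1 -0.47 (0.054), Slc2a1 -0.84 (0.0661), Pfkfb3 0.73 (0.102) and Slc16a3 0.83 (0.315).

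The PKI tumours did not rise to the same level. For 29 of the 36 members, both PKI BCC replicates 1 and 2 lay above both replicates 3 and 4, and for 5 both lay below, where 27.6% and 28% of all genes did so. Replicates 1 and 2 had 514 and 543 CPM of Xist, the RNA of the inactive X, and 0 of the Y-linked Ddx3y, while replicates 3 and 4 had 77.4 and 86.1 CPM of Ddx3y and little Xist, so this split is also one by sex. In SmoM2, whose BCC replicates divide by sex in the same way, 14 members were above and 7 below (25.5% and 25% of all genes). In Gnas-eKO 1 was above and 17 were below (18.1% and 18.6% of all genes), and replicate 2 there is the library that stood apart. Among the controls, Xist was high in SmoM2 replicate 3 (869 CPM), Gnas-eKO replicates 1 and 2 (954 and 1034) and PKI replicate 1 (966). The sexes are thus not balanced between Con and BCC in any model. The 12 immediate early and heat shock genes summed to 2812 and 2813 CPM in PKI BCC replicates 1 and 2, and to 1855 and 1665 in replicates 3 and 4, against 1474 to 1804 in PKI Con. Of the 12, Egr1, Junb and Jun were called higher in PKI BCC (1.80, 1.16 and 0.80), which is 25% of the list against 34.5% of all genes called. All 3 calls were lost without Con replicate 2 or 3, and that of Jun also without Con replicate 1 or BCC replicate 1 or 2 (edgeR adjusted p up to 0.102). Without BCC replicate 4, 7 of the 12 were called higher. In SmoM2 the sum was 1945 to 3120 CPM in Con and 1861 to 2120 in BCC, with 0 called higher and 2 lower (16.7% of the list, against 29.7% of all genes). Those 2, Hspa1a and Hspa1b, lost their calls without Con replicate 2, where Fos and Ier2 were called lower instead, and Hspa1a also without BCC replicate 3 or 4. In the test of PKI against SmoM2, 4 of the 12 were higher in PKI (33.3%, against 24.9% of all genes called), but 1 without SmoM2 Con replicate 3 or PKI Con replicate 3, and 2 without PKI BCC replicate 2. Their part in the split and in the changes of the members was not tested. With sex as a covariate, 21 members rose and 2 fell in PKI, and 21 and 2 in SmoM2, and the difference between PKI and SmoM2 was higher in PKI for 10 and lower for 8, where it was lower for 5 without the covariate. Calls over all genes rose as well, from 5653 to 6331 in PKI and from 4860 to 5206 in SmoM2. For the difference they went from 2181 to 2322 higher and from 2119 to 2388 lower.

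Markers of other cells and of cell division moved with the models too. The 9 leukocyte markers summed to 34 to 48 CPM in PKI Con and 107 to 168 in BCC, with 7 of 8 tested called higher, and to 39 to 47 and 26.8 to 35.4 in SmoM2. The 8 fibroblast markers, collagen and matrix genes, summed to 41.3 to 57.2 CPM in SmoM2 Con and 439 to 579 in BCC, with 3 called higher (37.5%), and to 38.5 to 67.3 and 133 to 206 in PKI, with 4 called higher (50%). In Gnas-eKO they summed to 37 to 56.1 CPM in Con and to 256, 607, 149 and 344 in BCC, highest in replicate 2, with 1 called higher. That gene, Dcn (edgeR adjusted p 0.0485), lost its call in 5 of 7 fits that left out 1 library, those without any 1 of the Con libraries or BCC replicate 1 or 4 (edgeR adjusted p up to 0.223), and in 4 of 7 other fits (up to 0.282). Without Gnas-eKO BCC replicate 2, 6 fibroblast markers were called higher there, and without PKI Con replicate 1, 7 in PKI. The 8 endothelial markers summed to 1.29 to 2.22 CPM in SmoM2 Con and 4.74 to 6.9 in BCC, to 2.08 to 4.39 and 4.07 to 8.59 in Gnas-eKO, and to 1.83 to 5.12 and 4.9 to 6.88 in PKI. Of these only 2 or 3 were expressed enough to test. Egfl7 rose by 3.34 in SmoM2, by 2.49 in Gnas-eKO and by 2.50 in PKI, and Tek rose by 2.41 in SmoM2. With 1 library left out, the value of Tek ranged from 1.87 to 4.62 and that of Egfl7 in PKI from 2.11 to 4.03. The Gnas-eKO call of Egfl7 was lost without any 1 of the Con libraries or BCC replicate 1 or 4 (edgeR adjusted p up to 0.2), and the call of Tek without Con replicate 2 or 3 or BCC replicate 1 or 2 (up to 0.103). A replicate block and sex as a covariate also ended this call of Egfl7 (edgeR adjusted p up to 0.0949), and the block that of Tek (0.0672). The 5 melanocyte markers summed to 153 to 201 CPM in PKI Con and 72.2 to 117 in BCC, with 4 called lower (80%). In SmoM2 they summed to 115 to 204 CPM in Con and 109 to 159 in BCC, with 2 called lower (Mlana and Tyr, 40%). Of these, Mlana lost its call without Con replicate 2 (edgeR adjusted p 0.0579). The 5 erythroid markers summed to at most 274 CPM, in Gnas-eKO BCC replicate 1, with 0 called in any model. Of the 10 keratinocyte markers, 2 were called higher and 6 lower in SmoM2, and 2 higher and 4 lower in PKI. In SmoM2 Krt5 and Itgb4 each lost their calls in 6 of 7 fits that left out 1 library, all but the one without Con replicate 3 (edgeR adjusted p up to 0.0927 and 0.0914). Krt10 lost its call without Con replicate 2 or 3 (0.06). The fit without Con replicate 2 left 3 lower. In PKI 2 were left lower without Con replicate 2 or 3 or BCC replicate 1, 2 or 3, and 1 higher in every fit that left out 1 library but the one without BCC replicate 1. In Gnas-eKO 3 were called lower without BCC replicate 2, and 0 with it. All 12 proliferation genes rose in PKI, from a sum of 756 to 857 CPM in Con to 1347 to 1473 in BCC, while in SmoM2 0 were called higher and 1 lower (edgeR; 3 had an unadjusted p under 0.05), and 2 lower without BCC replicate 4. In PKI Pcna lost its call without Con replicate 1 or 2 or BCC replicate 2 (edgeR adjusted p up to 0.0808), and in the joint fit (0.0513). What part these cells have in the levels of the members was not tested.

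Other genes of the same pathways, from lists chosen by role, were called in both directions. Of 20 other genes of glycolysis, 12 or 13 were expressed enough to test, and 3 rose and 2 fell in SmoM2, 0 and 0 in Gnas-eKO (edgeR; 3 had an unadjusted p under 0.05), and 2 and 2 in PKI. The called share was 41.7% in SmoM2 and 30.8% in PKI, against 29.7% and 34.5% of all genes. Eno2, the neuronal enolase, rose most in SmoM2, from 0.597 to 1.35 CPM in Con to 5.69 to 7.34 in BCC (2.89, SE 0.28). In PKI the highest was Fbp1, which runs a glycolytic step in reverse (2.66, SE 0.78), and Pfkfb2 fell in both models (-0.80 and -0.97). In PKI the call of Fbp1 was lost in 5 of 7 fits that left out 1 library, all but those without Con replicate 1 or BCC replicate 4 (edgeR adjusted p up to 0.0931), and that of Pfkfb2 without Con replicate 3 (0.0611). The log2 fold change of Fbp1 ranged from 2.18 to 4.69 with 1 library left out. Bpgm, the other gene that rose, lost its call in 6 of 7 such fits, all but the one without BCC replicate 3, and Eno3, the other that fell, without Con replicate 1 or BCC replicate 2 or 4 (up to 0.114 and 0.109). The 4 calls of the list in PKI became 1 without Con replicate 3 or BCC replicate 2, and 2 without Con replicate 1 or 2 or BCC replicate 4. In Gnas-eKO 2 genes were called without BCC replicate 2. Of 14 other pyruvate and lactate genes, 2 rose in SmoM2, 1 rose in Gnas-eKO, and 1 rose and 2 fell in PKI (14.3%, 7.14% and 21.4%, against 29.7%, 1.63% and 34.5% of all genes). Slc16a7 (MCT2), a further monocarboxylate transporter, rose in SmoM2 (2.44, SE 0.21), in Gnas-eKO (2.33, SE 0.39, edgeR adjusted p 0.0339) and in PKI (1.64, SE 0.40). Its call in Gnas-eKO was lost in 6 of 7 fits that left out 1 library, all but the one without BCC replicate 2 (edgeR adjusted p up to 0.18), and its call in PKI without Con replicate 2 or 3 (up to 0.0653). A replicate block and sex as a covariate also ended the Gnas-eKO call of Slc16a7 (edgeR adjusted p up to 0.0812), and the block its PKI call (0.0515). Pdk4 fell in PKI (-1.35). In SmoM2 the other call, Pdp1, was lost without Con replicate 2 or 3 or BCC replicate 2 or 3, and 1 gene was called lower without Con replicate 2 or BCC replicate 4. In PKI 4 genes were called lower without BCC replicate 1. Of 9 other oxygen sensing genes tested, 0 were called in SmoM2 and Gnas-eKO (edgeR; 1 and 2 had an unadjusted p under 0.05), and in PKI 2 rose, with Siah2 highest (0.69), and 3 fell, with Epas1 lowest (-0.80), together 55.6% against 34.5% of all genes. The call of Siah2 was lost without Con replicate 2 or 3 or BCC replicate 1, 2 or 3 (edgeR adjusted p up to 0.153), and that of Epas1 without Con replicate 2 or BCC replicate 1, 2 or 3 (up to 0.0706). The other gene that rose, Vhl, lost its call without Con replicate 3 (0.0519). Without any 1 of these 5 libraries the list had 3 calls in place of 5, or 33.3%. Over all genes the 5653 calls also fell in those fits, to between 4057 and 5339.

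Of 24 other hypoxia targets tested, 9 rose and 1 fell in SmoM2, 1 rose in Gnas-eKO, and 8 rose and 3 fell in PKI. These are 41.7%, 4.17% and 45.8% of the list, against 29.7%, 1.63% and 34.5% of all genes called. Edn1, the vasoconstrictor endothelin, had 1.84 to 2.98 CPM in SmoM2 Con and 47.4 to 60.4 in BCC (4.58, SE 0.18), and also rose in Gnas-eKO (4.13, SE 0.72, edgeR adjusted p 0.0371) and PKI (2.40, SE 0.36). The Gnas-eKO call was lost in 6 of 7 fits that left out 1 library, all but the one without BCC replicate 2 (edgeR adjusted p up to 0.189). It was also lost without the filter on low counts and with sex as a covariate (edgeR adjusted p up to 0.0837). In PKI the highest was Plod2, a collagen lysyl hydroxylase (3.47, SE 0.57, with 0 to 0.507 CPM in Con and 2.85 to 3.95 in BCC). Bhlhe41, a repressor of the circadian clock, had 36 to 47.2 CPM in SmoM2 Con and 116 to 132 in BCC (1.55, SE 0.10), and it fell most in PKI, from 63.5 to 72.8 CPM in Con to 22.1 to 39.4 in BCC (-1.10, SE 0.16). The lowest in SmoM2 was Wsb1 (-0.28, SE 0.08), a call lost without Con replicate 3 or BCC replicate 1 or 4 (edgeR adjusted p up to 0.0755). Without Con replicate 1 or BCC replicate 2, 2 genes of the list were called lower there. In PKI 1 was called lower, in place of 3, without Con replicate 2, and in Gnas-eKO 5 were called higher without BCC replicate 2.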

How the data were processed

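RNA of tail keratinocytes was sequenced in 21 libraries (polyA RNA, a stranded ligation kit, per the labels' protocols). Reads were demultiplexed with bcl2fastq 2.20, trimmed with cutadapt 1.18 and aligned with STAR 2.7.0f, and Partek was used, with mouse build mm10, per the submitters' processing notes, which give the tools without their roles. The authors deposited a table of estimated counts per gene, in which 32.3% of values were not whole. The counting method, its annotation and its use of strand are not given in the sources used here. A normalized table was not used.

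Estimated counts were rounded to whole numbers for the tests. Each model was fitted on its own 7 libraries with edgeR 4.0.16 (filterByExpr, TMM, robust quasi-likelihood test, Benjamini-Hochberg adjustment over all genes tested, threshold 0.05), and differences between models on 14 libraries with an interaction term. Standard errors were derived from F, as the absolute log2 fold change over its root. CPM values use TMM-scaled totals over all libraries. The fit within each model was also run on simulated counts, with an outcome that is not given here. Alternatives were DESeq2 1.42.0 (its size factors, and its Wald test), no filter, a joint fit, a replicate block, each library left out and, chosen after seeing the data, sex as a covariate and counts of near-identical copies (BLAST 2.17.0) added. R 4.3.3, limma 3.58.1, Python 3.11.15, pandas 2.3.3 and matplotlib 3.10.9 were used.

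The members and lists were chosen with earlier results of these data known. Values in every library are given for members among the 4 highest or 4 lowest called log2 fold changes of a model, and for the 3 smallest adjusted p-values of each contrast between models. Other members are given by means, ranges and counts, and genes of other lists where they were the highest or lowest called. No libraries were duplicates (lowest chi-square per degree of freedom 8.33).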

Additional observations from a re-analysis of the deposited data

Results flagged for a closer look

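The following values stood out by rule and are given without explanation. In SmoM2 BCC, replicate 2 had the lowest Gapdh level, 127 CPM, far from the other 3 libraries (143 to 146 CPM). In Gnas-eKO BCC, replicate 3 had the highest P4ha2 level, 16.6 CPM, where the other 3 had 7.99 to 8.99 CPM. These were 2 of 108 groups of 4 libraries examined, and chance gives about 1 in 20.

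The BCC effect differed between PKI and SmoM2, by the interaction test of edgeR, for 15 members. On the log2 scale it was higher in PKI by 1.31 for Egln3, 1.27 for Eno1, 0.84 for Pkm, 0.83 for Slc2a1 and for Hif1a, 0.81 for Pgk1, 0.75 for Ldha, 0.67 for Gapdh, 0.64 for Higd1a and 0.59 for Pgam1. With the counts of near-identical copies added, the value for Eno1 was 0.84 (edgeR adjusted p 0.00717). The difference was -1.28 for P4ha1, -0.93 for Ddit4, -0.72 for Pfkm, and -0.40 for both Hk2 and Car12.

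Between PKI and Gnas-eKO the effect was higher in PKI for 13 members. The difference was 2.38 for Slc16a3, 2.11 for Slc2a1, 1.63 for Egln3, 1.35 for Pkm, 1.20 for Pgk1 and for Eno1, 1.09 for Egln1, 1.04 for Gapdh, 1.02 for Pfkl, 1.00 for Ldha, 0.85 for Pgam1, 0.83 for Tpi1 and 0.81 for Hif1a.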

How the results depend on the processing

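Over 136 pairs of gene and comparison, fits that kept all libraries gave 952 values, of which 900 stayed on their side of the threshold, 30 lost a call, 22 gained one and 0 called values changed sign. With 1 library left out, 1014 of 1148 values stayed, 127 lost a call, 7 gained one and 0 called values changed sign. Over all these fits together, uncalled values changed sign in 25 of the 136 pairs. Of 36 members, Gnas-eKO had 0 called, but 5 with the DESeq2 Wald test, 8 in the joint fit, 1 with sex as a covariate, and 0 to 4 with 1 library left out (4 without BCC replicate 2). Gnas-eKO against SmoM2 had 0, but 3 with DESeq2, 1 in the joint fit, and 0 to 1 with 1 library left out. With 1 library left out, SmoM2 had 15 to 20, PKI 19 to 23, PKI against SmoM2 9 to 14 and PKI against Gnas-eKO 5 to 15. Over all genes, calls in such fits numbered 3613 to 4627 in SmoM2, 4057 to 5466 in PKI and 3401 to 4429 for PKI against SmoM2. The causes of these shifts were not tested.

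Replicate numbers are shared between groups but do not pair the samples. Same-numbered libraries had correlations of deviations from -0.145 to -0.0679 in SmoM2, 0.0463 to 0.199 in Gnas-eKO and -0.0436 to 0.277 in PKI. With the replicate block, 14 members were called in SmoM2, 0 in Gnas-eKO, 25 in PKI, 0 for Gnas-eKO against SmoM2, 13 for PKI against SmoM2 and 13 for PKI against Gnas-eKO. Over all genes, the block took the calls from 4860 to 3428 in SmoM2, from 5653 to 5988 in PKI and from 4300 to 3958 for PKI against SmoM2. The block ended the SmoM2 calls of Slc2a1, Hk1, Aldoa, Aldoc, Gapdh, Pgam1 and Ddit4, and the calls of Car12 and Ddit4 for PKI against SmoM2, and with it Hif1a was called higher in PKI and lower in SmoM2. Over all genes, the 267 calls in Gnas-eKO became 1535 with DESeq2, 2644 in the joint fit, 135 with the block, 106 with sex, and 0 to 1910 with 1 library left out. The 30 of Gnas-eKO against SmoM2 became 212 with DESeq2, 66 in the joint fit and 14 to 79, and the 1564 of PKI against Gnas-eKO became 2389 with DESeq2, 925 with the block and 673 to 2512. Depth limits Adm and the lowest Plod2 values, where 3 counts are up to 0.189 CPM.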
